A study of Drosophila melanogaster with 3 samples.

Results

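Peaks of GFP-tagged PHDP that lay in introns close to a gene start were examined across the Drosophila melanogaster genome. A peak was counted when its summit, the position of highest signal, fell inside a gene but in no exon, more than 500 bp and at most 5000 bp from the nearest annotated start site of any gene. Among the peaks on the main arms that passed the authors' irreproducible discovery rate (IDR) filter, 1887 met this positional rule and 5205 did not, so that they made up 26.6% of the list (exact 95% interval 25.6 to 27.7%, counting error over peaks only). No measured value entered the rule.

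The peaks came from chromatin immunoprecipitation followed by sequencing (ChIP-seq) with an antibody against GFP, on whole embryos aged 10 to 24 h. All embryos belonged to a transgenic line that stably expresses PHDP with GFP at its C terminus, and they formed 1 group of 3 biological replicates. No embryos without the tag were analysed here, so PHDP binding and signal that the antibody gives by itself cannot be told apart. In whole embryos, strong binding in few cells and weak binding in many cells cannot be told apart either.

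PHDP is a transcription factor of the paired-like homeodomain class. Homeodomains contact short AT-rich cores, and homeodomains of the paired class can also bind as pairs to palindromes in which TAAT and ATTA face each other. Introns near the start of fly genes are known to hold many enhancers, the elements through which other transcription factors, such as GATA, forkhead and AP-1 proteins, control a gene from outside its promoter.

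The 6 strongest of these peaks and the 3 strongest that hold a palindrome of TAAT and ATTA 3 bases apart (P3) are printed here as the 201 bases centred on the summit. Peaks of 1 arm were left out of this set. They are given because the signal and the sequence words described further on were read from such windows. Sequences are the plus strand of genome release 6 (dm6), and capitals mark the homeodomain core TAATTA, the palindromes with TAAT and ATTA 2 (P2) or 3 bases apart, the GATA word AGATAA, the forkhead word TGTTTAC and the AP-1 word TGANTCA, on either strand.
CG11050 peak: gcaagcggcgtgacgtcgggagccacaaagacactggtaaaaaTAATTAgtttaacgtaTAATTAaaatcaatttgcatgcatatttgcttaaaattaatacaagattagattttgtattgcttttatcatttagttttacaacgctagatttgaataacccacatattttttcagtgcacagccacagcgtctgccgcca
ush peak: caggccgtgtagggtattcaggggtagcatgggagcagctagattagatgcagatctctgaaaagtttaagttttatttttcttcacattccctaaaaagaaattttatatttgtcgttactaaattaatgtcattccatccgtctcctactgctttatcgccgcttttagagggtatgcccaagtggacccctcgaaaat
Trl peak: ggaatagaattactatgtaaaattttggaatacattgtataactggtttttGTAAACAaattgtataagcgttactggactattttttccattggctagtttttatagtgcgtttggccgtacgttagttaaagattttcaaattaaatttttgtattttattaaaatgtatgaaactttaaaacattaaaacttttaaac
CG32772 peak: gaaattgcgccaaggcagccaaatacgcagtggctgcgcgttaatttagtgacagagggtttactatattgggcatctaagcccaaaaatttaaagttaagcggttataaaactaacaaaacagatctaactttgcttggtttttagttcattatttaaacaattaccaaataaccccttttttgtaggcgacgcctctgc
Lk6 peak: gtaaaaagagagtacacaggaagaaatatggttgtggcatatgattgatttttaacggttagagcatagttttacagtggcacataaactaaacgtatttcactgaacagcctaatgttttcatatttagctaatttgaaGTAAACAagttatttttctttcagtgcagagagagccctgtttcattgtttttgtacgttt
CG9663 peak: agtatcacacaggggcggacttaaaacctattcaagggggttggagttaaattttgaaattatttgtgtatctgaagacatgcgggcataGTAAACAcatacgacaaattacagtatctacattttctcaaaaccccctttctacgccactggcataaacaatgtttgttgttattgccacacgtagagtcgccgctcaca
Dok peak: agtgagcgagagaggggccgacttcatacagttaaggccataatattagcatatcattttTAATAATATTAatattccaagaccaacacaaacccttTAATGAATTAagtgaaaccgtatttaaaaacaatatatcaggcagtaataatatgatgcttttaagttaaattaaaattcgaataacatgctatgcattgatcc
CG32425 peak: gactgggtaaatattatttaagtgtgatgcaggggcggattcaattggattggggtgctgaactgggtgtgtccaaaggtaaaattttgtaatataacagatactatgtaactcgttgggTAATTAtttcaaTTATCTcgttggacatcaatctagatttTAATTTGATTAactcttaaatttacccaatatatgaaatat
CHES-1-like peak: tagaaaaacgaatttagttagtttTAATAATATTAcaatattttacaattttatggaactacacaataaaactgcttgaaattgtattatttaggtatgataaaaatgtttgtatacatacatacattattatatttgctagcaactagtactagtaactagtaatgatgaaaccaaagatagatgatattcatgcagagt

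The windows were the summit regions of peaks in CG11050 (2L:6612605-6612805), ush (2L:480987-481187), Trl (3L:14759426-14759626), CG32772 (X:4910263-4910463), Lk6 (3R:11760956-11761156) and CG9663 (2L:3302091-3302291). The windows with P3 lay in Dok and the overlapping gene CG1677 (X:7324910-7325110), in CG32425 (3L:20508235-20508435) and in CHES-1-like (X:7705462-7705662). The forkhead word stood in the Trl, Lk6 and CG9663 windows, and the CG11050 window held TAATTA at 2 positions. The ush and CG32772 windows held none of the 6 marked words. The Dok window held both palindromes.

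The near-start introns held a denser set of peaks than introns farther from a start. Sequence that met the positional rule covered 24.5 Mb, or 18.4% of the main arms, and held 76.9 IDR summits per Mb, against 32.1 per Mb in introns more than 5000 bp from any start. Intergenic sequence at the same distances held 42.7 per Mb, sequence within 500 bp of a start 173 per Mb, and the arms as a whole 53.1 per Mb. Among the strongest 5000 peaks of each replicate, near-start introns held 55.9, 55.5 and 54.0 summits per Mb in replicates 1, 2 and 3, against 20.9, 20.6 and 20.0 in far introns. The means were 55.1 ± 0.97 and 20.5 ± 0.45 per Mb (SD, n = 3), a 2.69-fold density in near-start introns (log2 ratio 1.43 ± 0.0074). Against all sequence of the arms the density was 1.47-fold (log2 ratio 0.56 ± 0.026). Both ratios were above 1 in 3 of 3 replicates, with p = 0.25 in a two-sided exact sign-flip permutation test over replicates. That is the smallest p that 3 replicates allow, so none of the comparisons over replicates in these data can pass a threshold of 0.05, and each is given by its size, its SD and the number of replicates on each side.

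Density declined with distance from the start. Summits per Mb of intron among the strongest 5000 peaks were 85.7 ± 3.15 at 500 to 1000 bp, 64.6 ± 3.58 at 1000 to 1500 bp and 58.0 ± 3.10 at 1500 to 2000 bp (SD, n = 3). They were 44.0 ± 2.24 at 2000 to 3000 bp, 38.8 ± 1.02 at 3000 to 4000 bp and 40.7 ± 2.70 at 4000 to 5000 bp. The last pair of bins differed by less than the SD of the outer one, whereas the bin nearest the start lay above all others in each replicate. Beyond the limit, introns held 32.8 ± 1.57 at 5000 to 7500 bp and 7.11 ± 0.067 beyond 20000 bp. The difference across the 5000 bp limit, between 40.7 and 32.8 per Mb, was smaller than that between the 2 innermost bins. Peak strength did not follow the same course: the median IDR signal was 328 in the bin nearest the start, 286 at 2000 to 3000 bp and 318 at 3000 to 4000 bp. The IDR signal is the value that the authors' peak caller gave each peak, and it is used only to rank and compare peaks within the IDR list.

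**Figure D1:**
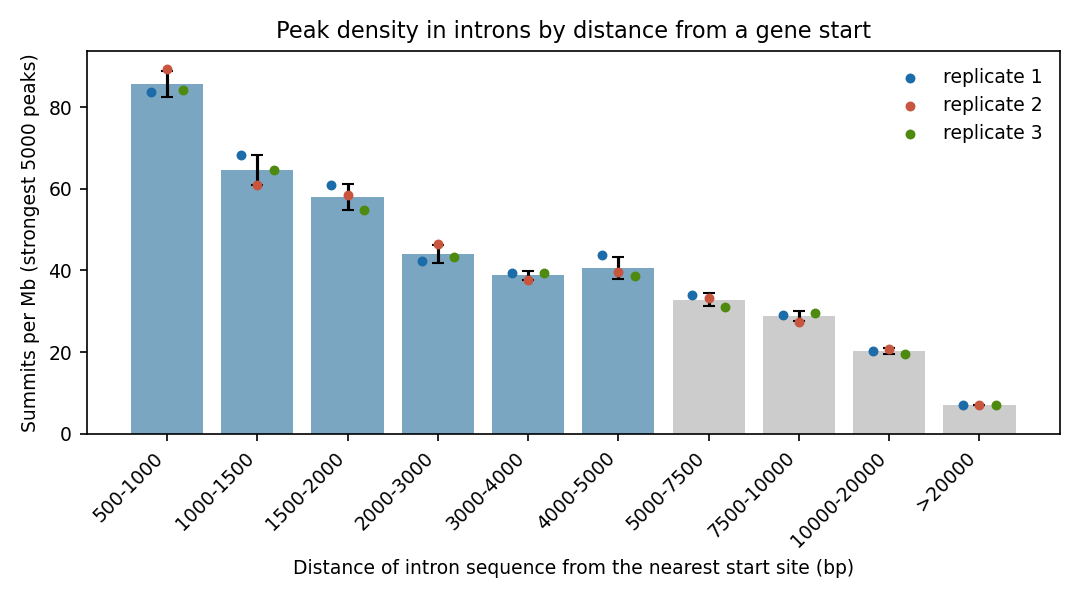
Summits per Mb of intron sequence (vertical axis) among the strongest 5000 peaks of each replicate, by distance of the sequence from the nearest start site in bp (horizontal axis); bars are means, error bars SDs and points the 3 replicates. Blue bars meet the positional rule and grey bars lie beyond it: the mean is 85.7 per Mb in the bin nearest the start and 7.11 beyond 20000 bp.

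First introns held more of these peaks than their share of sequence. Of the 1887 peaks, 1439 (76.3%) lay in the first intron of at least 1 transcript. Among the strongest 5000 peaks of each replicate, 77.4, 77.5 and 77.5% of the summits in near-start introns lay in a first intron, against 57.4% of the eligible bases, a difference of 20.1 ± 0.069 percentage points (SD, n = 3; higher in 3 of 3 replicates, exact sign-flip p = 0.25). Because first introns are closer to starts, the same shares were taken in 2 ranges of distance. At 500 to 2000 bp the summit share was 83.3 ± 0.41% against 64.5% of bases, and at 2000 to 5000 bp it was 68.8 ± 0.85% against 51.2% of bases. The excess was thus 18.8 and 17.5 points within these ranges.

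The kind of nearest start divided the peaks into 3 groups. In 1079 peaks (57.2%) the summit lay downstream of a start of the gene that holds it, in 422 (22.4%) upstream of such a start, that is between alternative starts of 1 gene, and in 386 (20.5%) the nearest start belonged to another gene. Summits among the strongest 5000 peaks numbered 61.5 ± 2.40 per Mb downstream of a gene's own start, 89.2 ± 2.15 upstream of it and 31.5 ± 0.92 where another gene's start was nearest (SD, n = 3). The downstream density was 0.689 times the upstream one (log2 ratio -0.54 ± 0.085, below 0 in 3 of 3 replicates) and 1.95 times that near another gene's start (log2 ratio 0.97 ± 0.077, above 0 in 3 of 3 replicates; exact sign-flip p = 0.25 for each). The order was the same in both ranges of distance. At 500 to 2000 bp the densities were 76.3 ± 3.01 downstream, 109 ± 1.58 upstream and 38.9 ± 2.52 near another gene's start, and at 2000 to 5000 bp they were 46.9 ± 1.82, 66.4 ± 5.24 and 26.7 ± 0.79. Median IDR signals were closer together, at 308, 318 and 276 in the same order. P3 stood in 2.41% of the downstream peaks, 4.27% of the upstream peaks and 2.59% of those near another gene's start, and TAATTA in 19.3, 19.4 and 18.4%.

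The positional limits cut through peaks of ordinary strength. The nearest peak inside the inner limit lay 501 bp from the start of Sod1, the cytosolic superoxide dismutase gene, with an IDR signal of 219, and the nearest outside lay exactly 500 bp from the start of CG7029 with 376. At the outer limit a peak in Liprin-gamma lay inside at 4997 bp with 203, and a peak in NetB, which encodes a netrin guidance cue, lay outside at 5008 bp with 326. Across all 1887 peaks the median distance was 1674 bp, the median length of the intron 6912 bp and the median peak width 294 bp, against a width of 319 bp over all IDR peaks. The peak itself reached into an exon in 105 cases (5.56%), and in 14 it was wider than the intron.

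In median strength the near-start intron peaks stood close to the whole list. Their median IDR signal was 305, against 301 over all IDR peaks. They made up 18 of the strongest 100 peaks (18%), 113 of the strongest 500 (22.6%) and 252 of the strongest 1000 (25.2%). These shares were below their 26.6% of the whole list, and most so among the strongest 100. Their median signal was 110, 118 and 89.1 in the lists of replicates 1, 2 and 3, against 98.4, 104 and 82.9 for far-intron peaks and 117, 121 and 94.0 for promoter-proximal peaks. Within replicates the log2 median was higher by 0.15 ± 0.040 than in far introns and by 0.085 ± 0.023 than in intergenic peaks within 5 kb of a start (SD, n = 3; higher in 3 of 3 replicates each). It was lower than in promoter-proximal peaks in 3 of 3 replicates, with a log2 difference of -0.067 ± 0.021. Each of these comparisons gave p = 0.25 in the exact sign-flip test, and they correspond to folds of 1.11, 1.06 and 0.954.

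The replicates found the same positions. A summit within 100 bp was present in the full lists of all 3 replicates for 1755 of the 1887 peaks (93.0%), beside 90.5% of all IDR peaks. Of the others, 123 were matched in 2 replicates, 8 in 1 replicate and 1 in none. The IDR list was made from the replicate lists, so its peaks are expected to be matched, and the share is not independent support for them. By replicate, 97.2, 98.0 and 97.3% were matched, a mean of 97.5 ± 0.43%, against 97.4 ± 0.11% in far introns and 95.5 ± 0.52% among promoter-proximal peaks (SD, n = 3). The difference of 1.94 ± 0.10 points from promoter-proximal peaks, higher in 3 of 3 replicates, came to 0.477 points where any overlap of the peaks counted as a match. With each replicate list cut to the length of the IDR list, it was 1.27 ± 2.87 points, and the replicates did not share 1 direction. Spearman's correlation of signal across the matched peaks was 0.794, 0.809 and 0.814 for the 3 pairs of replicates, over 1799, 1786 and 1803 peaks that share the control, the genome sequence and the peak caller. The median distance between a replicate summit and the IDR summit was 14 bp.

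Among the strongest peaks, the one in CG11050 (2L:6612331-6612991) had signals of 2269, 2781 and 1907 in replicates 1, 2 and 3 and ranked 2, 1 and 1 of each full list. Its summit lay 1018 bp downstream of the gene's start in a second intron of 140 bp, so that the 661 bp peak spans neighbouring exons. The peak in ush (2L:480520-481345) had 2075, 2333 and 1752 and lay in the 13185 bp first intron of that gene, 1399 bp upstream of a start of cbt. ush encodes U-shaped, a Friend-of-GATA cofactor, and cbt a zinc finger transcription factor. The ush peak ranked 4, 5 and 3 of the lists. The scale of signal differs between lists, so the order of the replicates within a peak is not read as a difference, and ranks place a peak within each list.

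The Trl peak (3L:14759284-14759858) had signals of 1656, 1567 and 1281 in replicates 1, 2 and 3, and lay 1523 bp downstream of a start of Trl. This gene encodes the GAGA factor, a DNA-binding protein that acts on promoter chromatin, and the window 100 bp either side of the summit held no GAGAG. The CG32772 peak (X:4910016-4910624) had 1313, 1692 and 1121, and lay 1261 bp downstream of the start in the first intron. The Lk6 peak (3R:11760857-11761452) had 1371, 1592 and 1017 and lay 977 bp upstream of one of that gene's alternative starts. Lk6 encodes a kinase of the translation factor eIF4E. These peaks ranked between 9 and 25 in every replicate list.

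The peak shared by the overlapping genes HmgZ and HmgD (2R:21703098-21703693), which encode HMG-box chromatin proteins, had signals of 1501, 1169 and 948. It held AGATAA, and its rank was 13 in replicate 1, 49 in replicate 2 and 37 in replicate 3. The CG9663 peak (2L:3301905-3302655) had 1291, 1347 and 881, and the CG12769 peak (2R:8060816-8061217) 996, 1284 and 971. The peak in chif and Hyls1 (2L:16351006-16351457) had 987, 1258 and 865. It lay 974 bp upstream of a start of chif, which encodes a Dbf4-type activator of the Cdc7 replication kinase. The tenth, in the 41450 bp first intron of Tlk (X:3741989-3742434), had 1022, 1192 and 794. Tlk encodes Tousled-like kinase, which acts in chromatin assembly. Of these 10 peaks, all were matched in all 3 replicates.

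**Figure D2:**
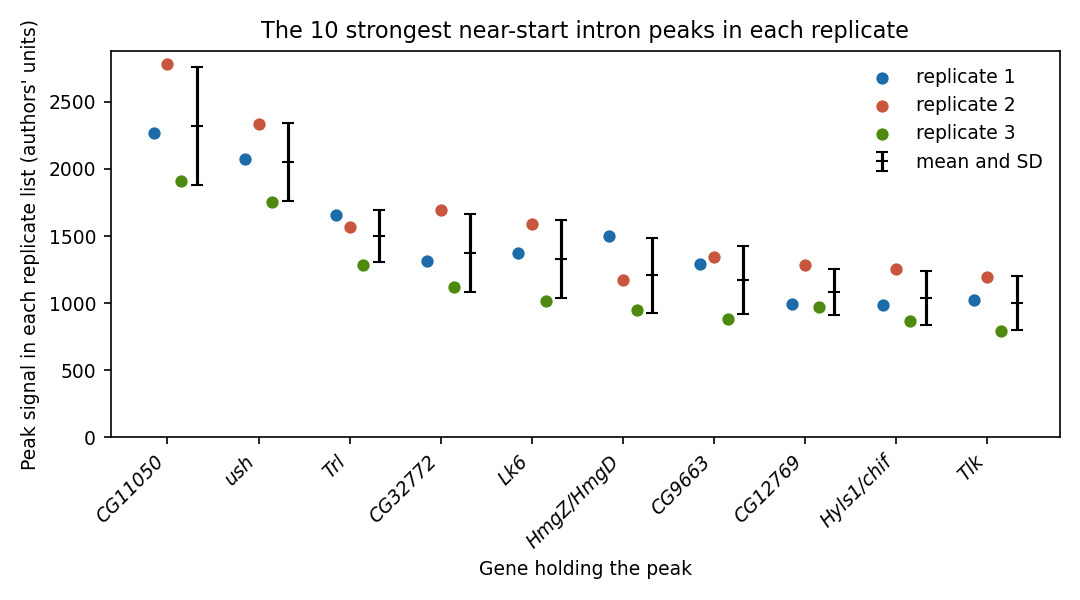
Signal of the 10 strongest near-start intron peaks in each replicate list, in the peak caller's own units (vertical axis), by the gene that holds the peak (horizontal axis); points are replicates, and bars to their right the mean and SD over the 3, which include the difference in scale between the lists. The CG11050 peak lies between 1907 and 2781 and the Tlk peak between 794 and 1192.

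At the other end, the 3 weakest peaks had an IDR signal of 172, which is also the lowest in the IDR list. They lay in Grip, which encodes a PDZ scaffold protein (44.7, 74.2 and 58.7 in replicates 1, 2 and 3), in Dys, the dystrophin gene (84.1, 56.1 and 38.9), and in the overlapping genes CG46315 and CG6424 (80.2, 59.5 and 38.4). All 3 were matched in every replicate. The strongest peak that missed a replicate ranked 128 among the 1887. It lay in NFAT, which encodes a Rel-domain transcription factor, with 442 and 293 in replicates 1 and 2 and no summit within 100 bp in replicate 3. Next came peaks in Mcr, a gene for a septate junction protein (237 and 208 in replicates 2 and 3, none in replicate 1), and in Rip11, a gene for a Rab11 effector (184 and 326 in replicates 1 and 2, none in replicate 3).

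Sequence words were counted within 100 bp of each replicate's own summit and in windows centred 500 bp to either side, for 18 words and both strands. The 3 replicates were read at largely the same peaks, with summits a median of 14 bp from the IDR summit. Their windows thus held mostly the same sequence. For words and GC, here and below, the SD and p over replicates therefore reflect mainly small shifts of the summit. They do not measure variation between embryos or counting error over peaks. The words for GATA, forkhead and AP-1 factors, the homeodomain core and both palindromes were more frequent at the summits. AGATAA stood in 19.8, 19.2 and 19.6% of summit windows in replicates 1, 2 and 3, against 11.8, 12.2 and 12.4% of flanking windows, a difference of 7.41 ± 0.55 percentage points (SD, n = 3). TAATTA stood in 19.7, 19.1 and 18.8%, against 12.8, 13.1 and 13.2%, a difference of 6.22 ± 0.64 points. TGTTTAC stood in 9.76, 9.79 and 9.31%, against 4.83, 5.08 and 5.07%, a difference of 4.63 ± 0.35 points and the largest ratio of the 3, at 1.93-fold. The summit and flank values did not overlap for these words. The same held for each of the 18 words except TATCGATA, so it does not set these words apart.

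P2 stood in 2.55 ± 0.15% of summit windows against 1.09 ± 0.073% of flanks, and P3 in 2.88 ± 0.27% against 1.59 ± 0.13% (SD, n = 3). TGANTCA stood in 6.99 ± 0.17% against 5.31 ± 0.070%, and TTCNNNGAA, the word of STAT factors, in 6.79 ± 0.064% against 5.75 ± 0.21%. These 7 words were higher at the summits in 3 of 3 replicates, 10 others were lower in 3 of 3, and TATCGATA differed by -0.0092 ± 0.087 points, on both sides of 0. The exact sign-flip p was 0.25 for each of the 17 words with 1 direction, or 0.265 after Benjamini-Hochberg adjustment over the 18. With flanks kept to near-start intron sequence, the same 7 words were higher at the summits. The difference for TGANTCA was then 0.887 ± 0.174 points, against 1.68 ± 0.156 with all flanks. Of the lower words, GAGAG stood in 20.6 ± 0.37% of summit windows against 27.0 ± 0.35% of flanks and CACACA in 15.3 ± 0.37% against 22.6 ± 0.29%. The other 8 lower words were the TEAD word CATTCC, the E-boxes CAGCTG and CACGTG, the nuclear receptor word AGGTCA, the Runt word TGTGGTT, the Zelda word CAGGTAG, the Grainy head word AACCGGTT and GGTCACAC, with mean differences between -3.81 points for CATTCC and -0.208 points for GGTCACAC. A match to P2 or P3 can contain TAATTA, and GGTCACAC can share bases with AGGTCA; a window counts for each word it holds.

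Base composition moved with these counts. The windows at the summits were 34.1 ± 0.034% GC, against 41.7 ± 0.020% in the flanks (SD, n = 3). When only peaks were kept whose flank differed from the summit by at most 5 percentage points of GC, 512, 498 and 509 peaks were left in replicates 1, 2 and 3, with 37.7, 37.7 and 37.9% GC at the summits and 38.6, 38.5 and 38.7% in the flanks. In these peaks AGATAA was higher at the summits by 6.64 ± 1.99 points and TGTTTAC by 5.30 ± 0.32 points. TAATTA was not: its difference was -0.45 ± 0.91 points, that of P3 -0.40 ± 0.099 and that of P2 0.0040 ± 0.43. TGANTCA was higher at the summits by 1.12 ± 0.49 points. The excess of homeodomain words was thus not seen in the peaks whose summits and flanks were alike in GC. That of the GATA and forkhead words was. The AP-1 word kept the direction of its difference, but 1.12 points over 498 to 512 peaks rest on few windows, and their counting error was not measured. The peaks kept were a minority with summits richer in GC than all summits, and the rare words P2 and P3 rest on few windows there. TTCNNNGAA also turned, to -3.69 ± 0.82 points. Of the words lower at the summits, GAGAG came to 0.45 ± 1.58 points and CAGCTG to 2.20 ± 1.12, CACACA to -1.70 ± 0.97 and CATTCC to -0.33 ± 0.77, whereas AGGTCA stood at -2.89 ± 0.52 (SD, n = 3).

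**Figure D3:**
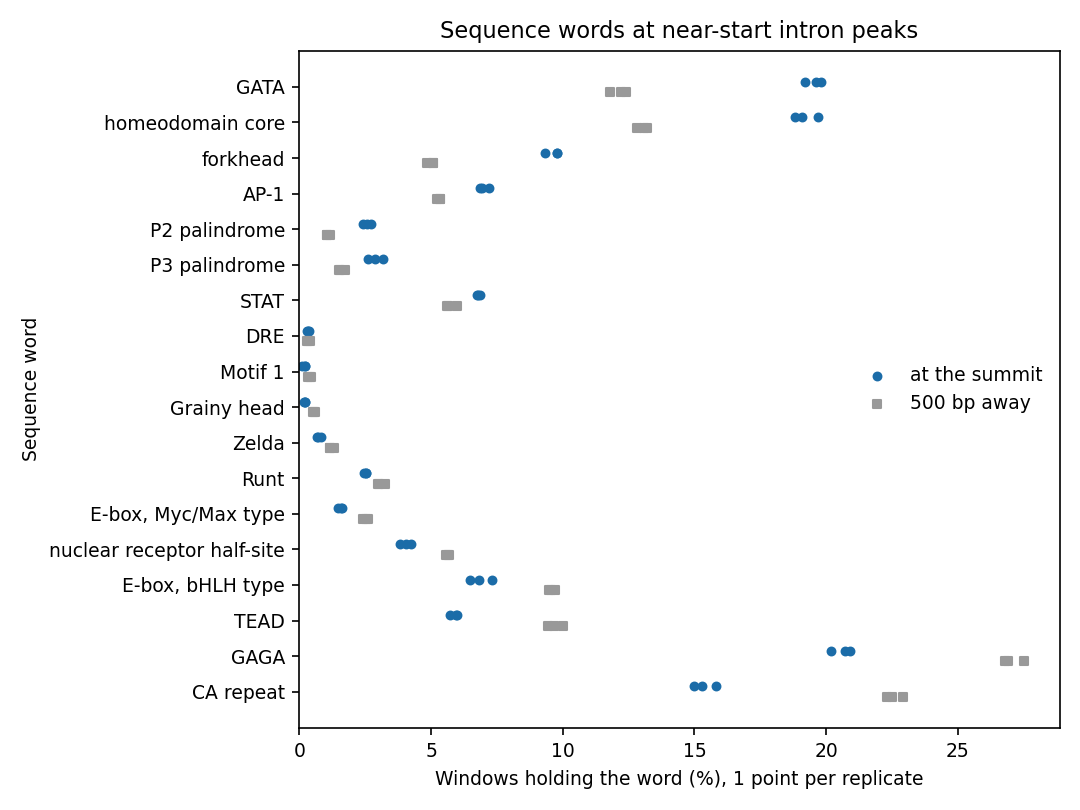
Share of windows holding each of 18 sequence words (horizontal axis, %) at the summits of near-start intron peaks (blue circles) and 500 bp away (grey squares), with 1 point per replicate and the words ordered by the difference. The GATA word lies at 19.2 to 19.8% at the summits and 11.8 to 12.4% in the flanks, and the CA repeat at 15.0 to 15.8% and 22.3 to 22.9%.

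Compared with other classes of IDR peaks, the summits in near-start introns held GATA, forkhead and AP-1 words more often, with the smallest differences from far introns. AGATAA stood in 19.9% of the 1887 IDR summit windows beside 16.7% of all IDR peaks, TGTTTAC in 9.54% beside 7.61% and TGANTCA in 6.89% beside 5.26%. At the replicates' own summits, AGATAA was higher than in promoter-proximal peaks by 5.75 ± 0.17 points, than in intergenic peaks within 5 kb by 4.39 ± 0.29 points and than in far introns by 1.28 ± 0.29 points. TGTTTAC was higher by 2.46 ± 0.16, 4.11 ± 0.092 and 1.51 ± 0.63 points in the same order, and TGANTCA by 2.84 ± 0.17, 2.72 ± 0.17 and 0.96 ± 0.34 (SD, n = 3; 3 of 3 replicates and exact sign-flip p = 0.25 for all 9). In far introns these words stood in 18.3, 8.11 and 6.03% of summits, against 19.5, 9.62 and 6.99% in near-start introns. TTCNNNGAA was also higher than in promoter-proximal, intergenic and far-intron peaks, by 1.35 ± 0.232, 1.78 ± 0.175 and 1.48 ± 0.164 points. So was AGGTCA, by 0.186, 0.63 and 0.327 points, and both were higher in 3 of 3 replicates. All 18 words were compared with these 3 classes, and no p adjusted over them can fall below 0.25. Mean GC at the summits was 34.1% in near-start introns, 35.6% in promoter-proximal peaks and 33.6 to 34.0% in the intergenic and far-intron peaks.

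The homeodomain words were about as frequent as in the whole list. TAATTA stood in 19.1% of the IDR summit windows, beside 18.8% of all IDR peaks, P2 in 2.65% beside 2.65% and P3 in 2.86% beside 3.07%. Against promoter-proximal peaks at the replicates' summits, TAATTA differed by 0.59 ± 0.38 points, P2 by -0.33 ± 0.040 and P3 by -0.20 ± 0.36 (SD, n = 3; P2 lower in 3 of 3 replicates). Against far introns, TAATTA was higher by 1.65 ± 0.52 points, P2 by 0.63 ± 0.13 and P3 by 0.77 ± 0.28, each in 3 of 3 replicates. Against intergenic peaks within 5 kb the differences were -0.64 ± 0.89 for TAATTA, -0.79 ± 0.25 for P2 and -0.31 ± 0.28 for P3, with P2 and P3 lower in 3 of 3 replicates.

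Words known from housekeeping promoters were rare. TATCGATA, the DNA replication element, stood in 7 of the 1887 summit windows (0.371%) beside 3.12% of all IDR peaks, and GGTCACAC, bound by the factor M1BP, in 4 (0.212%) beside 2.19%. At the replicates' summits they differed from promoter-proximal peaks by -6.33 ± 0.27 and -4.11 ± 0.24 points (SD, n = 3; lower in 3 of 3 replicates). Their shares were also low in sequence of the same kind. TATCGATA stood in 0.326 ± 0.053% of the replicates' summit windows, against 0.377 ± 0.066% in far introns and 0.335 ± 0.042% in the flanks, and GGTCACAC in 0.181 ± 0.062%, against 0.792 ± 0.11% and 0.389 ± 0.055%. CAGCTG, an E-box of bHLH factors, stood in 6.87 ± 0.41%, against 11.1 ± 0.17% of promoter-proximal summits and 4.75 ± 0.0054% of far-intron summits.

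Signal was set against words within the near-start intron peaks. The 54 peaks with P3 had a median IDR signal of 352, against 303 in the peaks without it. In the replicate lists their log2 median was higher by 0.33, 0.10 and 0.38, a mean of 0.27 ± 0.15 or 1.20-fold (SD, n = 3; exact sign-flip p = 0.25). The 361 peaks with TAATTA were higher by 0.073 ± 0.032, and the 50 with P2 by 0.045 ± 0.075 with 1 replicate below 0. The 375 peaks with AGATAA were lower in 3 of 3 replicates, by a log2 difference of -0.066 ± 0.057, and the 180 with TGTTTAC differed by -0.019 ± 0.033. P3 was thus the word with the largest difference in signal of the 8 examined, on the smallest number of peaks but 1. The 3 replicates score largely the same peaks with each word. The SD and p here therefore do not measure variation between peaks.

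The 3 strongest peaks with P3 were spread over the genome. The first lay in an intron of mam (2R:14024931-14025333), the gene of the Notch coactivator Mastermind, with signals of 727, 663 and 539 in replicates 1, 2 and 3. The next lay 796 bp downstream of the start of Dok, which encodes an adaptor protein (X:7324829-7325235), with 488, 707 and 452. The last lay 1352 bp upstream of a start of CG32425 (3L:20508186-20508618), with 536, 449 and 373, and also held TAATTA and AGATAA. All 3 were present in every replicate.

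The peaks lay in 1120 genes, of which 1088 were protein-coding and 32 non-coding. Near-start intron sequence is present in 9101 protein-coding genes, so 12.0% of these held a peak. A single peak was held by 655 of the 1088 (60.2%), while 62 held at least 5 and 6 held at least 10. Genes with a peak were longer, with a median length of 15288 bp against 3083 bp and a median of 6062 bp of eligible intron against 352 bp in genes without one. By eligible sequence, 1.01% of genes with up to 1000 bp held a peak, 16.1% at 1000 to 3000 bp, 27.2% at 3000 to 6000 bp and 46.3% above.

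CG1677 held the most, with 15 peaks in 58139 bp of eligible sequence, IDR signals between 173 and 1651 and all 15 matched in 3 replicates. Tlk held 13, between 183 and 3020. shn, which encodes the zinc finger repressor Schnurri of the Dpp pathway, held 12, of which 8 were matched in 3 replicates. CG32264 held 11 and ush 10. CHES-1-like, a forkhead factor gene, held 10 in only 14663 bp, or 6.82 per 10 kb against 2.58 per 10 kb in CG1677. In the strongest 5000 peaks of each replicate it held 11, 10 and 10, whereas ush held 8, 5 and 10.

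Genes with a near-start intron peak also had a promoter-proximal peak more often. Of the 1088 genes, 622 (57.2%) had an IDR summit within 500 bp of one of their own starts, against 25.5% of the 8013 genes with eligible sequence and no such intron peak, where all 9101 gave 29.3%. In the strongest 5000 peaks of each replicate, 42.5, 42.6 and 46.3% of genes with an intron peak had one at the promoter, against 20.1, 20.6 and 20.4% of genes without. The difference was 23.4 ± 2.13 percentage points (SD, n = 3; higher in 3 of 3 replicates, exact sign-flip p = 0.25). It was 3.26 ± 3.59 points in genes with up to 1000 bp of eligible intron, 16.0 ± 1.81 at 1000 to 3000 bp, 21.1 ± 1.90 at 3000 to 6000 bp and 27.7 ± 3.11 above. Genes with an intron peak had a median of 2 annotated start sites, against 1 in the others. Among genes with 1 start site the shares were 33.3 ± 3.96% and 16.2 ± 0.37%, a difference of 17.1 ± 3.90 points.

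**Figure D4:**
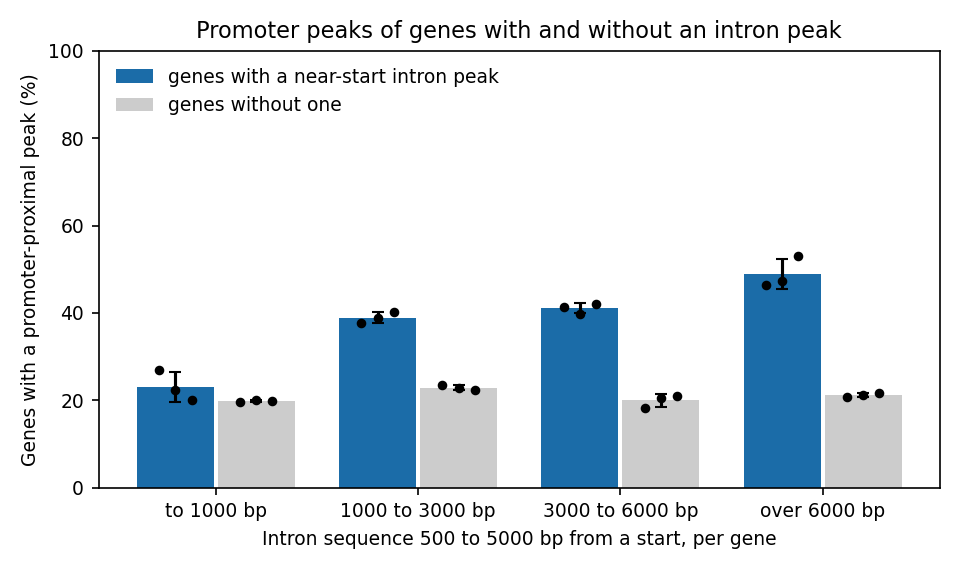
Share of protein-coding genes with a promoter-proximal peak (vertical axis, %) among genes with (blue) and without (grey) a near-start intron peak, in the strongest 5000 peaks of each replicate, by the amount of intron 500 to 5000 bp from a start that a gene has (horizontal axis); bars are means, error bars SDs and points the 3 replicates. The blue bars stand at 23.1, 38.9, 41.1 and 48.9% and the grey ones between 19.9 and 22.9%.

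Signalling and regulatory genes were described by 16 lists, as counts only. The lists were chosen with earlier results of these data known, and their members are longer than most genes. Their shares and densities are therefore not read as an enrichment. Over all lists, 90 of 214 genes with eligible sequence held a peak (42.1%), beside 12.0% of all protein-coding genes. Their median eligible sequence was 4646 bp, against 457 bp over all protein-coding genes with any, and they held 135 peaks per Mb of it, against 77.8 over all such genes. Of all genes with 1000 to 3000 bp of eligible sequence 16.1% held a peak, with 3000 to 6000 bp 27.2% and above 6000 bp 46.3%. The shares of the lists below are to be read beside these as well as beside 12.0%. When each peak was assigned to the gene of its nearest start in place of the gene that holds it, 81 listed genes had a peak.

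The highest share was among sequence-specific repressors and zinc finger regulators, where 11 of 16 genes (68.8%) held a peak. The strongest was in shn (2R:11184367-11184736, signals 515, 615 and 516 in replicates 1, 2 and 3), then in ken, a gene for a BTB zinc finger repressor (322, 261 and 273), and in br, the Broad-Complex gene of the ecdysone response (282, 264 and 199). The other 8 were sbb, elB, psq, ttk, luna, Kr-h1, chinmo and CtBP. CtBP encodes a corepressor, so the list is wider than its name.

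In the Dpp pathway, the BMP signalling route of the fly, 10 of 15 genes held a peak (66.7%). They included the ligand gene dpp, its antagonist sog, the receptor genes tkv, put and wit, the glypican genes dally and dlp, the Smad genes Mad and Dad, and shn. After shn, the strongest peaks were in dlp (3L:14666016-14666302, signals 284, 360 and 219) and wit (3L:4070480-4070773, signals 256, 351 and 209). In dpp and Dad the summits lay 4660 and 4811 bp from the start, near the outer limit, with IDR signals of 192 and 234.

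In the EGF receptor pathway 10 of 19 genes held a peak (52.6%). The strongest were in aos, the gene of the secreted inhibitor Argos (3L:16480380-16480737, signals 505, 605 and 430), in drk, the gene of the Grb2-type adaptor (329, 383 and 327), and in pnt, the gene of the pathway's ETS activator (377, 222 and 236). The others included S and ru, which act on the ligands' processing, the ligand gene Krn, the receptor gene Egfr, and aop and sty, which encode a repressor and a feedback inhibitor.

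In the ecdysone group 11 of 20 genes held a peak (55.0%). Its median eligible sequence was 12584 bp, and 46.3% of all genes above 6000 bp held one. The strongest lay in Hr4, a nuclear receptor gene (X:1951741-1952088, signals 483, 617 and 476), in ImpL2, which encodes an insulin-binding protein (400, 490 and 424), and in Eip63E, a cyclin-dependent kinase gene (302, 370 and 254). The others were EcR, which encodes the hormone's receptor, br, Eip75B, Hr3, tai, ftz-f1, Hr96 and Eip78C. Eip75B held 8 peaks, the most of this list.

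Among regulators of the actin cytoskeleton 9 of 16 genes held a peak (56.2%), led by sick (2L:19865440-19865812, signals 567, 785 and 570), RhoGEF64C (218, 298 and 149) and shot, a gene for a spectraplakin that links actin and microtubules (177, 216 and 168). The others were RhoGAP71E, chic, cher, dia, ena and Pak. In the glia and septate junction list 6 of 13 held one (46.2%), led by pnt, loco, the gene of an RGS protein (103, 139 and 90.6), and Nrg, the neuroglian gene (91.1, 105 and 66.0), with Nrt, cora and Lac the others. In the circadian clock list 5 of 11 held one (45.5%), led by Pdp1 (264, 306 and 219), dco, a casein kinase gene (257, 242 and 234), and vri (162, 294 and 199), with sgg and cwo the others. In the list of myoblast fusion and muscle adhesion 5 of 12 did (41.7%), led by kirre (367, 267 and 296), mbc (259, 206 and 184) and the muscle regulator Mef2 (175, 167 and 195), with mew and rols beside them. The kirre peak lies in an intron of the overlapping gene CG32795, 1858 bp downstream of that gene's start.

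In the tracheal list 4 of 10 genes held a peak (40.0%): rib (264, 297 and 252), Stat92E (241, 349 and 199), stumps (70.3, 88.1 and 65.3) and the FGF gene bnl. In the Hippo list 5 of 13 did (38.5%), led by the cell cycle factor gene E2f1 (192, 203 and 177), kibra (157, 178 and 121) and mats (140, 159 and 129), with wts and ex the others. In the Wingless list 7 of 20 did (35.0%), led by the feedback inhibitor gene nkd (256, 267 and 235), the receptor gene fz (170, 225 and 182) and the coreceptor gene arr (208, 149 and 164), with sgg, Wnt4, Notum and fz2 the others. In the JAK/STAT list 4 of 12 did (33.3%), with ken, Stat92E and the suppressor gene Socs36E (163, 191 and 167) the strongest and Ptp61F the other. A gene here is the one that holds the peak. Some of the peaks given with replicate values, above or below, lay nearest to a start of another gene. These were the peaks in br, dlp, wit, drk, pnt, Hr4, RhoGEF64C, Nrg, kirre, fz, arr, mam, ush, Mcr and Ptp61F.

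Of 6 genes for GATA factors and their cofactor, 2 held a peak (33.3%), ush with 10 and GATAd with 1 (135, 132 and 117). In the Notch list 4 of 14 did (28.6%), namely mam, the ubiquitin ligase gene neur (305, 302 and 190), fng and Notum, which is known for its action on Wingless and stood in both lists. In the insulin and TOR list 3 of 15 did (20.0%), the receptor gene InR (329, 247 and 211), S6k (90.4, 101 and 57.6) and foxo (110, 70.8 and 63.8). In the hemocyte list 2 of 13 did (15.4%), ush and sn, the fascin gene (296, 359 and 274). The lists differ in the amount of eligible sequence, with medians between 922 bp in the insulin and TOR list and 12584 bp in the ecdysone list. Per Mb of that sequence they stood in another order, beside 77.8 peaks per Mb over all protein-coding genes. The density was 228 per Mb in the glia and septate junction list, 218 in Dpp, 194 in Hippo, 188 in EGF receptor, 177 in GATA and 168 in the repressor list. It was 140 in the clock list, 139 in hemocyte, 136 in insulin and TOR, 130 in actin, 119 in JAK/STAT and 118 in Wingless. The muscle list had 111, with the ecdysone list between it and Wingless, and the tracheal list with 85.2 and Notch with 69.3 were the lowest. The insulin and TOR list, low by its share of genes, thus lay near the 135 of all lists together. Single genes weigh heavily in several of these densities. pnt held 7 of the 16 peaks of the glia and septate junction list, and shn 12 of the 31 of Dpp. ush held 10 of the 12 of hemocyte, and InR 4 of the 6 of insulin and TOR.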

How the data were processed

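Anti-GFP ChIP-seq peaks of 3 biological replicates were used. Per the accompanying notes, the authors made each replicate's peaks on dm6 from its alignment and a control common to all, the pooled peaks from the 3 alignments, and the IDR list of 7092 peaks from all these lists. Chromatin was sonicated to sizes of 200 to 800, without a unit, per the labels. The aligner used, like the caller, is not given in the sources used here. In the authors' lists each line gives a signal per peak and a deposited −log10 q value, which was not used. The scale of signal differs between lists, so tests compared it only within a list; values of a peak in the 3 lists are given side by side. The replicate and pooled lists hold 30000 peaks each, so peak numbers were not compared, and sequencing depth is unknown.

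Summits were classified with the Ensembl release 115 annotation and genome release 6, with transposable elements left out. Replicate densities used the strongest 5000 peaks of each list, and other replicate values the nearest summit within 100 bp. Errors are SDs over replicates, and the tests were two-sided exact sign-flip permutations. The members, words and gene lists were chosen with earlier results of these data known. Genes and peaks were named by a rule: the 10 strongest and 3 weakest peaks, those next to the limits, the 3 strongest with P3, the 3 strongest lacking a replicate, the 6 genes with most peaks, and up to 3 genes of each list with the strongest peaks. The other genes of a list that hold a peak are given by name, except 1 that is not reported here. dpp, Dad and Eip75B were given values after these were seen. Alternatives were other distance limits, start sets, list depths, match rules, windows and flanks, and leaving out each replicate. Windows of like GC, flanks kept to near-start introns, arms left out and ranges of distance were chosen after seeing the data. So were classes of gene, kinds of nearest start and signal by word. The density, match, word and sign-flip calculations were checked on simulated data with known answers. Python 3.11.15, numpy 2.4.6, scipy 1.17.1, pandas 2.3.3 and matplotlib 3.10.9 were used.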

Additional observations from a re-analysis of the deposited data

Results flagged for a closer look

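The pooled list holds 22908 peaks that did not enter the IDR list, and 7130 of them meet the same positional rule. Of these, 1527 (21.4%) had a summit within 100 bp in the full lists of all 3 replicates. Over all 22908 such peaks the share was 22.5%, so near-start introns were close to the background. They are given because they lie outside the list that the comparisons use. The pooled list was made from the same 3 alignments as the replicate lists, so the matches are not independent of it, and no control lists were analysed here to set beside them.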

How the results depend on the processing

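No paired analysis was possible because the series has 1 group of replicates. The density ratio of near-start to far introns stayed above 1 under all alternatives run (log2 1.23 to 1.81), as did that to all sequence (0.372 to 0.731). The number of peaks ranged from 1379 to 2424 with other limits or start sets, and 1363 to 1405 were matched in the remaining pair when 1 replicate was left out and each list was cut to the length of the IDR list. The matched share against far introns, 0.135 points, lay between -0.113 and 0.34 when 1 replicate was left out, with the lowest value without replicate 2, and was 0.988 with matches within 50 bp and 1.84 when each replicate list was cut to the length of the IDR list. In windows of like GC, 6 words changed sign: TAATTA to -0.452 points, P3 to -0.395, TTCNNNGAA to -3.69, GAGAG to 0.446, CAGCTG to 2.2 and TATCGATA to 0.233. TTCNNNGAA also changed with flanks 1000 bp away (-0.073 points), and TATCGATA lay between -0.0409 and 0.0407 points when 1 replicate was left out, highest without replicate 1. The cause was not tested, beyond the GC that the windows of like GC hold near equal. Depth is unknown, no untagged control was analysed here, and 3 replicates limit every p to 0.25 or above.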

Other observations

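Among the arms, X held the most near-start intron peaks per Mb of eligible sequence, at 86.1, and 2L the fewest of the long arms, at 71.4. All IDR peaks ran in another order, with 53.2 per Mb on X, 57.5 on 2L and 23.3 on chromosome 4. Over the replicates' strongest 5000 peaks the densities were 62.5 ± 0.73 per Mb on X and 51.6 ± 2.27 on 2L (SD, n = 3). Chromosome 4 held 4 peaks in 0.309 Mb, or 12.9 per Mb. Another IDR summit lay within 1000 bp of 26.2% of the near-start intron peaks, beside 21.4% of all IDR peaks.

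A pair of peaks in listed genes, chosen after their values were seen, ranked far lower in 1 replicate list than in the others. The Ptp61F peak (3L:1368193-1368459) ranked 23184, 2453 and 2275 of 30000 in replicates 1, 2 and 3, with signals of 23.3, 152 and 122. The CtBP peak (3R:13012336-13012731) ranked 3165, 4108 and 23036, with signals of 119, 105 and 18.9. The low rank was that of a different replicate in each.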
